A study of Mus musculus with 10 samples.

Results

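Among the regions of open chromatin that embryonic stem cells share with cells in the last sampled days of reprogramming, 2473 had their first peaks at day 9. Merging the overlapping peaks of 10 ATAC-seq lists gave 208851 regions, each counted for every list that had a peak in it. The 2473 regions were chosen by presence in both lists of DAY9 and of ESC and absence from all MEF, DAY3 and DAY6 lists. They made up 1.18% of all regions, a share that the rule itself fixes. That presence and absence is a description and carries no test. A region without a listed peak may still have been partly open.

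The libraries came from mouse cells of a C57BL/6 x 129 background, 2 libraries at each of 5 stages, each from 50000 cells. MEF are embryonic fibroblasts kept in MEF medium without doxycycline. At the Col1a1 locus they carry the OKSM cassette, which encodes Oct4, Klf4, Sox2 and Myc, and at Rosa26 they carry M2rtTA, which activates the cassette when doxycycline is given. DAY3, DAY6 and DAY9 are the same kind of cells after 3, 6 and 9 days in ESC medium with 1 ug/ml doxycycline and 50 ug/ml ascorbic acid. DAY6 and DAY9 cells were sorted for SSEA+ (a stage-specific embryonic antigen at the cell surface, not further named in the labels), and MEF, DAY3 and ESC cells were unsorted. ESC are the line V6.5 in ESC medium on irradiated feeder cells, without the cassette, so genotype, the absence of sorting and stage cannot be told apart between ESC and DAY9. The labels do not say whether the 2 libraries of a stage came from separate cultures or embryos.

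ATAC-seq uses a transposase that inserts adapters into accessible DNA, so that a peak marks DNA that is not wrapped tightly in nucleosomes. Regions far from gene starts that open in a cell type often hold enhancers, where transcription factors bind and act on genes over a distance. In mouse embryonic stem cells Oct4, Sox2, Nanog, Klf and Esrrb proteins bind such regions around each other's genes. The signals LIF, BMP, FGF, Nodal and Wnt bear on whether the cells stay pluripotent. In reprogramming, fibroblast genes are silenced and epithelial genes activated early, and the pluripotency genes outside the cassette, Nanog among them, are activated late.

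A few of the regions lay on a promoter whose sequence could be read. The promoter windows of 57 protein-coding genes, 64 windows in all, overlapped one. The upstream 250 bases of 4 of them are shown because they carry the best known late gene, a germline gene and 2 of the strongest regions at gene starts. They are from RefSeq (GRCm38.p6, the assembly of mm10), read 5′ to 3′ on the strand of the gene and ending at the base before its start. Capitals mark matches, on either strand, to ATGCAAAT (octamer), ACAATGG (SOX), GGGTGTGG (KLF), AAGGTCA (ESRRB and other nuclear receptors) and TTTGCAT, 1 base of any kind and ACAATG in a row, an element that joins an Oct and a Sox site. The last was added after the Nanog sequence had been seen.
Nanog (chr6:122707239-122707488, plus strand): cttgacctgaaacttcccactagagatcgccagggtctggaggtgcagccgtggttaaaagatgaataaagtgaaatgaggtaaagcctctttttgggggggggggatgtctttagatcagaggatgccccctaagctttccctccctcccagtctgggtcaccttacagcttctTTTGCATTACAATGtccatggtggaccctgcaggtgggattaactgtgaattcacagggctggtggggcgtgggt
Tex19.1 (chr11:121145893-121146142, plus strand): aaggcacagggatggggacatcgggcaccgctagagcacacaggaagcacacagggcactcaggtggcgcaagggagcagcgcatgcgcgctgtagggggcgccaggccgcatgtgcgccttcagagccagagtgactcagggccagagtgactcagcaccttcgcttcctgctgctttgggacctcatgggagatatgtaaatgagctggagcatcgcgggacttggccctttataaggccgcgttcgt
Serpinb5 (chr1:106860925-106861174, plus strand): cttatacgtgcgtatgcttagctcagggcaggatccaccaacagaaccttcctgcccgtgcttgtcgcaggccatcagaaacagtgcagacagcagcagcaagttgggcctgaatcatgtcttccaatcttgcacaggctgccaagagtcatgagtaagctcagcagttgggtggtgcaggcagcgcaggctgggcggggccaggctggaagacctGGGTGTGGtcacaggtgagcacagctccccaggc
Csrnp1 (chr9:119984743-119984992, minus strand): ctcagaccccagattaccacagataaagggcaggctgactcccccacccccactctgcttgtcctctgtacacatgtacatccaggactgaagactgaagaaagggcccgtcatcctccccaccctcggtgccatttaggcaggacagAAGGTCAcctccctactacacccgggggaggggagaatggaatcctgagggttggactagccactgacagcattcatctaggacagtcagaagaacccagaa

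The capitals in the Nanog sequence begin 75 bases before that start. Of all 21262 windows 2 held this joined element, both of them at Nanog, from whose promoter its letters were taken. In Serpinb5 the capitals mark the KLF letters and in Csrnp1 those of ESRRB. A second window of Csrnp1, in the same region and not shown, held none of the marked letters. Nor did the windows of Fbxl22, Lrp8 and Rab15, which also had some of the highest-scoring regions at gene starts and are not shown. Matches were few over the 64 windows: the octamer letters were in 1 (1.56%, Padi3), against 1.58% of all 21262 windows. The KLF letters were in 2 (3.12%, against 3.32% of all windows), the ESRRB letters in 2 (3.12%, against 3.59%) and the SOX letters in 0 (against 2.37%). The AP-1 letters TGANTCA were in 4 (6.25%, against 6.13%). The windows had a median GC content of 56.4% and a median of 7 CpG in 250 bases. Windows that overlapped any region with a peak in both ESC lists, 12589 in number, had medians of 61.2% and 17. A match is a description and not a binding site, and letters near to those searched are not counted.

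The stage labels were checked at marker genes, by peaks in both libraries within 1 kb of a gene's start (or of either end where no start was given). Of 8 pluripotency genes, 2 had them in MEF, 2 in DAY3, 6 in DAY6, 7 in DAY9 and all 8 in ESC. The 2 in MEF and DAY3 were Pou5f1 and Sox2. Of 5 epithelial genes, 0 had them in MEF, 2 in DAY3, 4 in DAY6, 5 in DAY9 and 4 in ESC, where Cldn6 lacked them. Of 7 fibroblast genes, all 7 had them in MEF, 4 in DAY3 and 3 in each later stage. Col3a1, Postn and Thy1 had them in MEF alone, and Col1a1, Col1a2 and Prrx1 at every stage. Of 5 genes of other cell types, Ptprc of blood and Pecam1 of endothelium had none at any stage, Gata6 had them at every stage, Sox17 from DAY6 on and Cdx2 in ESC alone. The lists held 45497 to 88980 peaks. Depth is not given, and the background pileup, recovered from fold and p, lay between 2.33 (DAY6 replicate 2) and 8.32 (MEF replicate 2). The DAY9 libraries differed from each other by less than counting noise at the 2473 regions (ratio of squared difference to counting noise 0.887, where 1 is noise alone) and were counted as 1 sample, although the ratio was 1.42 at regions with a pileup of 100 to 200. The ESC libraries differed by more (5.62). For the DAY3 libraries it was 1.33 at those pileups.

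The lists differed in the lowest fold they held. A peak at the background level needed a fold of at least 3.61 to be listed in DAY6 replicate 2 and 3.37 in DAY6 replicate 1, but 2.64 and 2.63 sufficed in the DAY9 libraries. The mean DAY9 fold of 1349 of the 2473 regions (54.5%) was below 3.61, so a peak of the same fold at background level would have gone unlisted in DAY6 replicate 2. When every list was cut to its 45497 highest-scoring peaks, 728 regions met the rule, and 348 of the 2473 (14.1%) remained among them. Without DAY6 replicate 1, 3928 regions met it. The part of depth in the absence from DAY6 was not tested.

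Just outside the rule lay 2791 regions with peaks in all 4 DAY9 and ESC lists and in exactly 1 earlier list. For 1445 of these the earlier list was DAY6 replicate 1 and for 968 DAY6 replicate 2. The DAY9 medians of the 1445 were a fold of 4.20 and 4.18 and those of the 968 were 4.08 and 4.17, against 3.48 and 3.46 inside the rule. A further 4025 regions lacked a peak in exactly 1 of the 4 later lists and had none before, 1133 of them in DAY9 replicate 1 and 1104 in DAY9 replicate 2.

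The regions had a lower fold at day 9 than in ESC, where the lowest listed fold at background level was also higher (3.35 and 2.94). The authors' fold, the ratio of the peak's pileup to its expected background, had a median of 3.48 and 3.46 in the DAY9 libraries and 6.27 and 4.80 in the ESC libraries. The quartiles were 4.46 and 9.15 in ESC replicate 1 and 3.60 and 6.72 in replicate 2, so ESC replicate 1 was the higher, while the DAY9 libraries were alike. The median log2 difference, ESC minus DAY9, was 0.59, a ratio of 1.51, with quartiles of 0.23 and 1.02. Without ESC replicate 1 the median was 0.32, over the 3251 regions that then met the rule. Across the 4 pairs of 1 DAY9 and 1 ESC library it ranged from 0.43 to 0.80. Even 2 libraries against 2 cannot give an exact two-sided p below 1 in 3, so none is given.

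**Figure D1:**
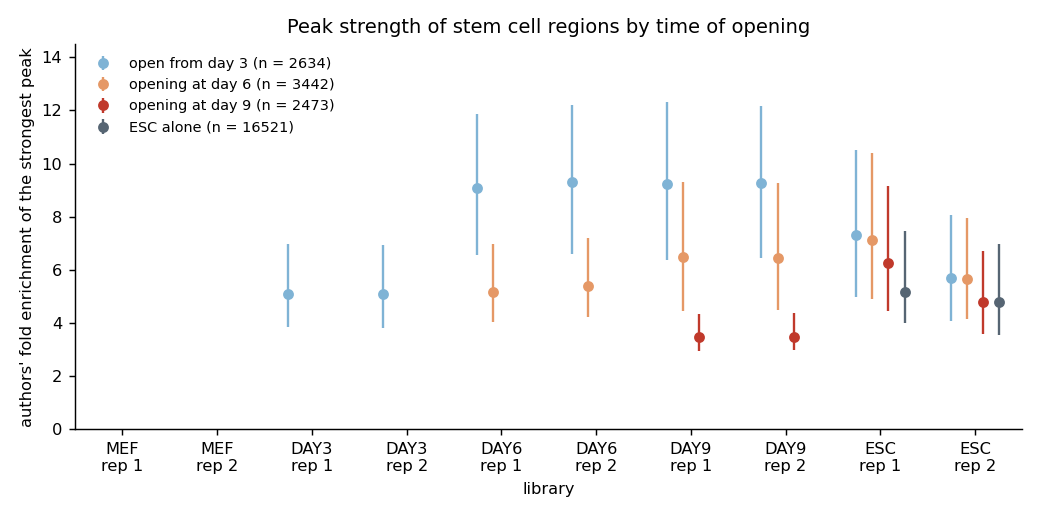
Authors' fold enrichment (vertical axis, linear) by library (horizontal axis) for 4 sets of regions with peaks in both ESC lists and no MEF peak, with points for medians and bars from the lower to the upper quartile over regions. The regions opening at day 9 have medians of 3.48 and 3.46 in DAY9 and 6.27 and 4.80 in ESC, and each set has points only where the rule gives it peaks in both libraries.

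In 1606 of the 2473 regions (64.9%, 95% Wilson interval 63.0% to 66.8%) both ESC folds were above both DAY9 folds. In 124 (5.01%) both DAY9 folds were above both ESC folds, and in 743 the groups overlapped. The interval covers counting error only, and leaving out 1 library gave ESC above in 59.5% to 79.3%. Among all 35137 regions with a peak in the 4 lists, 26.8% had ESC above and 33.9% DAY9 above. The rule required absence at day 6 and so bears on the DAY9 level. For comparison, regions opening at day 6 had ESC above in 30.7% and DAY9 above in 30.0%, with medians of 5.16 and 5.41 in DAY6 and 6.47 and 6.45 in DAY9. Regions open from day 3 had ESC above in 12.7%, with medians of 5.08 and 5.10 in DAY3 and 9.22 and 9.27 in DAY9. Each of these sets was chosen for having no peak before its first stage, which bears on its fold at that stage. Each fold was also divided by the library's median over the 15359 regions in all 10 lists. The median log2 difference of the 2473 regions was then 0.86, and 82.0% had ESC above. Scaling raised the share with ESC above in the other sets too. It was 47.8% among all 35137 regions, 47.9% among regions opening at day 6 and 26.2% among those open from day 3.

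**Figure D2:**
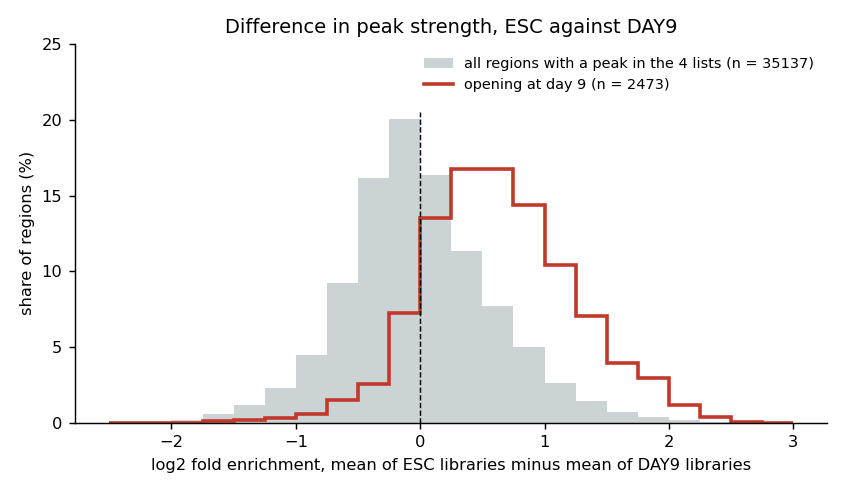
Share of regions (vertical axis, percent) by the log2 fold enrichment of the ESC libraries minus that of the DAY9 libraries (horizontal axis, bins of 0.25), for the 2473 regions opening at day 9 (red line) and all 35137 regions with a peak in the 4 lists (grey). The median of the regions opening at day 9 is 0.59 and that of all regions is -0.05.

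The pileup behind the fold had a median of 31 in each DAY9 library and of 34 and 36 in the ESC libraries. The expected background there was a median of 7.33 and 7.37 in DAY9 and 3.98 and 5.64 in ESC. Pileups are not scaled for depth, and the background of the whole list was 7.33 and 7.37 in DAY9 and 3.48 and 5.46 in ESC. The part of depth and background in the difference of folds was not tested. Across the 2473 regions the log2 folds correlated with Pearson's r = 0.74 between the DAY9 libraries and 0.61 between the ESC libraries. Between a DAY9 and an ESC library r was 0.19 to 0.24, lower than within either stage. Regions share libraries and a lower limit on the fold, and these correlations are descriptions.

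Of the pluripotency factors, 8 of 20 listed genes were the nearest protein-coding gene of at least 1 region, 12 regions in all. Over all 21883 protein-coding genes the share was 9.72%, and a gene with much empty sequence around it is more easily the nearest. The nearest gene need not be the gene a region acts on. For comparison, 12 of the 20 were nearest to a region opening at day 6, 7 to one open from day 3 and 17 to one in ESC alone. The shares over all protein-coding genes were 12.3%, 9.63% and 33.2%. The 20 genes were nearest to 251 regions in both ESC lists, of which 12 opened at day 9. Over all genes it was 2473 of 58800. In 5 of the 12 regions both ESC folds were above both DAY9 folds, beside 64.9% of all 2473 regions. In 1 of the 12 both DAY9 folds were above, beside 5.01%.

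The Nanog region, at the start of the gene for a homeodomain factor of the pluripotency network, spanned chr6:122707044-122707688. Its fold was 2.25 and 2.42 in DAY9 and 5.32 and 3.14 in ESC, and it stayed in the set when lists were cut to equal length but not with the top 50% of each list. The pileup, which is not scaled for depth, was 118 and 124 in DAY9 and 118 and 93 in ESC. The expected background was 52.0 and 50.6 in DAY9 and 21.4 and 28.9 in ESC. Of 6 regions in both ESC lists that were nearest to Nanog, 2 were in all 10 lists and 3 in ESC alone.

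Esrrb, an orphan nuclear receptor of the network, held a region inside the gene, 56.9 kb from a start. The fold there was 5.40 and 4.78 in DAY9 and 8.12 and 3.97 in ESC, and these overlap. Near Tcl1, a coactivator of Akt kinases, one region lay 36.0 kb away. Its fold was 3.72 and 3.22 in DAY9 and 11.5 and 10.7 in ESC. All ESC values there were well above the DAY9 values, and the neighbour at 26.0 kb was weaker in both stages, with 2.64 and 2.87 in DAY9 and 4.46 and 3.41 in ESC. Prdm14, a repressor of differentiation signals, had a region 4.79 kb from an end of the gene with 4.65 and 3.76 in DAY9 and 8.89 and 4.80 in ESC. A second region of Prdm14 lay 36.7 kb away, and 4 regions nearest to that gene had opened at day 6.

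Otx2, which is linked to the exit from naive pluripotency, was nearest to 3 regions, at 0.693, 1.12 and 48.8 kb. DAY9 and ESC folds overlapped in all 3. Nr5a2, a nuclear receptor that binds the Pou5f1 gene, had a region 337.0 kb from a start with 3.48 and 4.18 in DAY9 and 14.2 and 5.73 in ESC. The Sox2 region was 377.7 kb away and its values overlapped, at 3.72 and 3.34 in DAY9 and 12.5 and 3.10 in ESC. The Myc region, 63.2 kb from an end of the gene, was the one with DAY9 above: 5.43 and 6.69 in DAY9, 4.09 and 2.96 in ESC.

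Among late pluripotency and germline-linked genes, 5 of 20 were nearest to a region, 7 regions in all, beside 9.72% of all protein-coding genes. Of the same 20 genes, 5 were nearest to a region opening at day 6, 6 to one open from day 3 and 15 to one in ESC alone. The shares over all protein-coding genes there were 12.3%, 9.63% and 33.2%. The 7 regions were among 112 in both ESC lists nearest to these genes. Tex19.1, which is expressed in germ cells and pluripotent cells, had a region across its start. The fold was 3.28 and 2.55 in DAY9 and 11.4 and 8.99 in ESC, and the groups were far apart. It was the only region in both ESC lists nearest to that gene. Lin28b, an RNA-binding protein that blocks let-7 maturation, held a region with 4.80 and 4.18 in DAY9 and 13.0 and 6.5 in ESC. The Dppa5a region lay 1.88 kb from an end of the gene with 3.02 and 2.99 in DAY9 and 5.41 and 3.55 in ESC. Prdm1, a regulator of germ cell fate, was nearest to 3 regions 67.8 to 239.8 kb away, of which 1 had ESC above. Fbxo15 was the nearest gene of a region 652.1 kb away.

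Of 25 genes in the LIF, Nodal, FGF, BMP and Wnt list, 14 were nearest to at least 1 region, 19 regions in all. That is 56.0% of the list, beside 9.72% of all protein-coding genes. Of the same 25 genes, 5 were nearest to a region opening at day 6, 11 to one open from day 3 and 12 to one in ESC alone. The shares over all protein-coding genes there were 12.3%, 9.63% and 33.2%. The 19 regions were among 175 in both ESC lists nearest to the 25 genes. Over all genes it was 2473 of 58800. ESC was above DAY9 in 13 of the 19, beside 64.9% of all 2473 regions, and DAY9 above ESC in 2. The count over genes is a description, since the list was drawn up with results of these data known.

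Ligands come first. Near Lif, the cytokine that keeps mouse stem cells undifferentiated, a region 44.5 kb away had 3.00 and 2.99 in DAY9 and 11.7 and 8.93 in ESC. Lefty1, a Nodal antagonist, had a region 9.54 kb from an end of the gene with 3.48 and 4.54 in DAY9 and 9.04 and 8.17 in ESC. Each ESC value was above each DAY9 value at Lif and Lefty1. At the start of Nodal, a TGF-beta family ligand, the values overlapped, with 3.05 and 2.25 in DAY9 and 2.47 and 3.16 in ESC. The pileup at Nodal was 83 and 57 in DAY9 and 31 and 41 in ESC. The Nodal region left the set with equal list lengths, the top 50% of each list, 50% coverage and 500 bp windows alike. Bmp4, the ligand that induces Id genes, had a region 21.8 kb away with 3.48 and 2.63 in DAY9 and 8.89 and 4.65 in ESC.

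Fgf4, the main FGF ligand of pluripotent cells, and its neighbour Fgf3 shared one of the densest groups, 4 regions within 29.8 kb (chr7:144838047-144867813). The 2 nearest to Fgf4 lay 9.55 and 5.76 kb from its start. The first had 5.16 and 4.30 in DAY9 and 7.95 and 5.51 in ESC and the second 2.82 and 3.45 in DAY9 and 5.08 and 3.37 in ESC. The 2 others were nearest to Fgf3, one of them across its start. Folds did not overlap in the first Fgf4 region and overlapped in the 3 others. The first Fgf4 region stayed in the set with equal list lengths and the second did not.

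The receptors followed. Lifr, the LIF receptor, held a region 3.14 kb from a start with 2.22 and 2.19 in DAY9 and 5.42 and 7.83 in ESC. Il6st, its signalling partner gp130, had one 1.18 kb away with 2.41 and 2.45 in DAY9 and 7.05 and 5.70 in ESC. Both receptor chains of LIF thus had a region near a start in which ESC was above DAY9. Neither these regions nor those of Tex19.1, Lif, Lefty1 and Tcl1 stayed in the set with equal list lengths. Fgfr2 was nearest to 2 regions, at 14.2 and 317.5 kb, with ESC above in both.

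Of the intracellular members, Id1 and Id2, inhibitors of bHLH factors and targets of BMP, were nearest to 1 and 2 regions. The Id1 region had a fold of 1.91 and 1.91 in DAY9 and 7.43 and 2.94 in ESC. Its pileup was higher in DAY9 (58 and 50) than in ESC (40 and 18), on an expected background of 29.9 and 25.8 in DAY9 and 4.52 and 5.46 in ESC. Spry4, a feedback inhibitor of FGF signalling, had a region with 2.88 and 2.63 in DAY9 and 4.24 and 4.10 in ESC. Dusp6, a phosphatase of ERK, was nearest to a region with ESC above at 154.3 kb and to one with DAY9 above at 196.7 kb. The first had 6.24 and 4.30 in DAY9 and 10.0 and 10.3 in ESC, the second 4.31 and 4.59 in DAY9 and 3.45 and 2.80 in ESC. Tcf7l1, a repressor in the Wnt pathway, likewise had 1 region of each kind, with ESC above inside the gene and DAY9 above 39.1 kb outside. The Smad7 region, inside the gene of a TGF-beta feedback inhibitor, had 6.59 and 6.37 in DAY9 and 12.2 and 3.54 in ESC and overlapped.

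**Figure D3:**
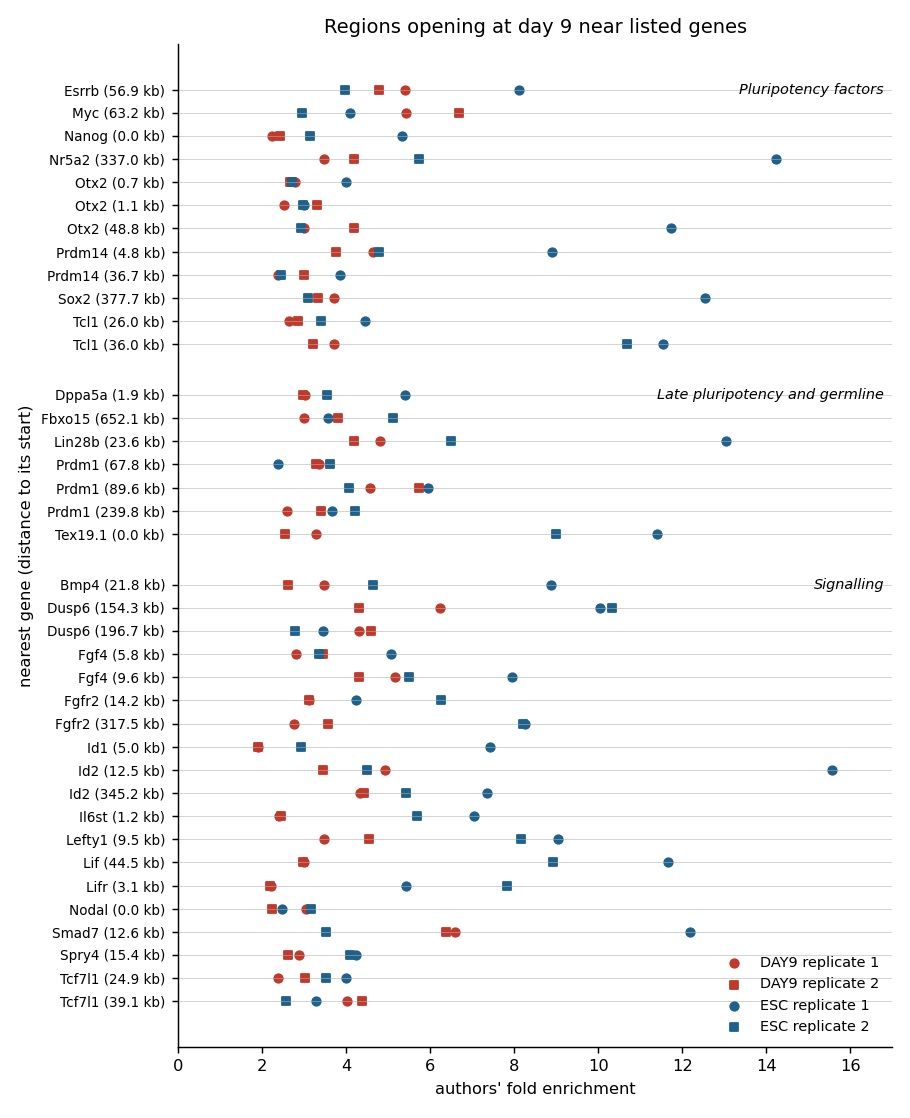
Authors' fold enrichment (horizontal axis, linear) of every region opening at day 9 whose nearest gene is on the lists of pluripotency factors, late pluripotency and germline-linked genes or signalling genes, with the distance to the gene's start (or end, where no start was given) in kb. Each region has 4 points, red for DAY9 and blue for ESC, circles for replicate 1 and squares for replicate 2, and at the Tcl1 region 36.0 kb away, Tex19.1, Lif, Lefty1, Lifr and Il6st the blue points stand clear of the red.

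In the 4 remaining lists 2 to 6 genes were nearest to a region. Of 20 chromatin modifiers 3 had one (Jarid2, Kdm2b, Kdm4c), of 20 epithelial genes 2 (Cldn3, Dsp), of 20 fibroblast genes 3 (Prrx1, Snai1, Zeb2) and of 20 extraembryonic and lineage genes 6 (Elf5, Foxa2, Gata3, Gata6, Tbx4, Tfap2c). Kdm4c, a histone demethylase gene, held a region with 3.00 and 3.11 in DAY9 and 17.9 and 11.2 in ESC. Its ESC values were the highest of the 3 in that list. Foxa2, an endoderm factor, had a region across a start with 3.30 and 2.45 in DAY9 and 3.55 and 3.76 in ESC. The 2 of 20 epithelial genes are close to the 9.72% of all genes.

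Ranked by the lowest score in the 4 lists, the strongest regions lay near Tcea1, inside Zmynd8 and 264.6 kb from Gm20172. The Tcea1 region (chr1:4855367-4856038) had a fold of 4.87 and 5.12 in DAY9 and 6.48 and 5.36 in ESC. Zmynd8, a chromatin reader gene, held one with 6.76 and 7.71 in DAY9 and 9.88 and 8.41 in ESC. At the Gm20172 region all 4 values were alike, 11.9 and 11.8 in DAY9 and 11.9 and 11.4 in ESC. The next were 34.2 kb from Fndc3b, inside Rabgap1l (nearest start Cacybp), near Malt1, 143.3 kb from Pclo, 8.72 kb from Chka, inside Myo10 and 254.3 kb from Ppp1r3a. Of these 10 regions 5 had ESC above and 5 overlapped, beside 64.9% and 30.0% of all 2473 regions. The Pclo region had 7.81 and 8.36 in DAY9 and 15.3 and 15.8 in ESC, and had the highest log2 difference of the 10 (0.94).

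Most regions were away from gene starts. A protein-coding gene start lay within 1 kb of 130 (5.26%, 95% Wilson interval 4.44% to 6.21%). Where no start was given, either gene end counted as a start, here and in the distances below. The interval covers counting error only. Another 1084 (43.8%) were inside a gene and 1259 (50.9%) between genes. Over all 208851 regions the shares were 9.05% at gene starts, 42.9% inside a gene and 48.0% between genes. Whether a region inside a gene was exonic or intronic was not analysed here. The median distance to a start was 25.9 kb, and 462 regions (18.7%) were over 100 kb away. Over all 208851 regions the median was 32.3 kb, and 25.1% were over 100 kb away. The share at gene starts was 8.54% among regions opening at day 6, 6.26% among those open from day 3, 3.14% in ESC alone and 68.2% among regions in all 10 lists. Among all 58800 regions in both ESC lists the share was 23.5%. Regions in ESC alone were a median of 51.9 kb from a start. A start within 1 to 5 kb was found for 11.4% of the regions opening at day 9 and for 7.44%, 8.50% and 6.33% of the 3 other sets in the same order.

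**Figure D4:**
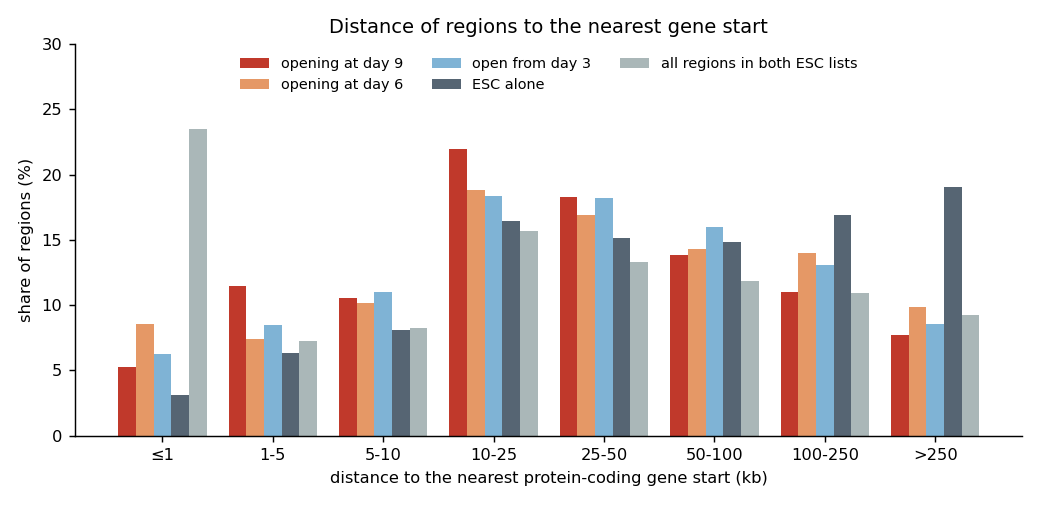
Share of regions (vertical axis, percent) by distance to the nearest protein-coding gene start in kb (horizontal axis, bins of unequal width), for regions opening at day 9, the 3 other sets of stem cell regions and all 58800 regions with a peak in both ESC lists. Of the regions opening at day 9, 5.26% lie within 1 kb and 18.7% over 100 kb away. Either gene end counts as a start where no start was given.

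Position went with small differences in strength. The 130 regions at gene starts had median folds of 3.24 and 3.22 in DAY9 and 4.88 and 4.18 in ESC. Regions between genes had 3.48 and 3.58 in DAY9 and 6.63 and 4.96 in ESC, and those inside genes lay in between in both ESC libraries. ESC was above DAY9 in 61.5% of the regions at gene starts, 66.4% between genes and 63.7% inside genes. The expected background was over 2 times the list's own in 180 regions in DAY9 replicate 1 (7.28%), 175 in DAY9 replicate 2 (7.08%), 428 in ESC replicate 1 (17.3%) and 260 in ESC replicate 2 (10.5%).

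The highest-scoring regions at gene starts were those of Csrnp1, Vangl1, Fbxl22, Tmed6, Lrp8, Serpinb5, Nanog, Terf1, Ano9 and Rab15. The Csrnp1 region, on the promoter printed above of a nuclear protein gene, had 3.35 and 3.75 in DAY9 and 5.97 and 5.39 in ESC. At Serpinb5 (maspin, a protein of epithelial cells) the fold was 6.48 and 4.66 in DAY9 and 13.4 and 7.12 in ESC. At Terf1, the gene of a telomere-binding protein, it was 3.04 and 3.60 in DAY9 and 6.26 and 4.49 in ESC. All 3 had ESC above DAY9, as did 61.5% of the 130 regions at gene starts. Lrp8, a reelin receptor, had 7.42 and 6.33 in DAY9 and 8.92 and 5.27 in ESC, and the values of Rab15, Vangl1 and Ano9 overlapped as well. Vangl1, Terf1 and Ano9 were placed by a gene end, because no start was given for them.

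The regions were spread over the genome. Of an autosome's regions in both ESC lists, between 3.36% (chromosome 16) and 4.80% (chromosome 7) belonged to the set, and 3.25% (60 regions) of those on the X chromosome did. Joined where gaps were at most 25 kb, 2227 stood alone, 107 groups held 2, 8 groups held 3 and 2 groups held 4. The groups of 4 were that of Fgf3 and Fgf4 and one of 58.2 kb inside Palld, an actin-associated protein gene. In the Palld group ESC was above DAY9 in all 4 regions, and the strongest had 4.80 and 6.45 in DAY9 and 12.4 and 6.81 in ESC. Groups of 3 lay near Lmnb1, across Csrnp1, near Ralgps2, at Cdh15 and inside Etl4. All 3 regions near Ralgps2 and all 3 at Csrnp1 had ESC above. It was 2 of 3 in Etl4 and 1 of 3 both near Lmnb1 and at Cdh15. Over all 2473 regions ESC was above in 64.9%.

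Some genes were nearest to several regions, in part those of the groups just named. Epha4, an ephrin receptor, and Etl4 had 5 each, and Gdap1, Palld, 2610301B20Rik, Kif16b, Slc39a11, Zfp281 and Fancl had 4 each. Every other gene was nearest to 3 or fewer. ESC was above DAY9 in 64.9% of all 2473 regions and in all 5 Epha4 regions. The strongest was inside the gene (chr1:77373766-77374542), with 6.36 and 5.02 in DAY9 and 17.8 and 13.3 in ESC. All 4 regions nearest to Zfp281, a zinc finger factor of pluripotent cells, had ESC above, at 59.6 to 133.8 kb. Near Gdap1 3 had ESC above, and the one at 59.5 kb had DAY9 above, with 9.11 and 6.21 in DAY9 and 3.57 and 3.10 in ESC.

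Regions opening at day 9 were next to each other about as often as their share of the ESC regions. For each, the next region with peaks in both ESC lists was found on either side. Another region of the set was on at least one side for 226 (9.14%, 95% Wilson interval 8.07% to 10.3%). Of all 4946 flanking regions 4.69% belonged to the set, which makes up 4.21% of the 58800, a ratio of 1.12. The same ratio was 1.40 for regions opening at day 6, 1.39 for regions open from day 3 and 1.40 for ESC alone. Regions opening at day 6 made up 6.63% of the flanks (5.85% of the 58800), regions in ESC alone 26.5% (28.1%) and regions in all 10 lists 24.6% (26.1%). Without DAY6 replicate 1, 14.4% of the regions that then met the rule had another on at least one side, and without DAY6 replicate 2 it was 14.2%. Those sets were larger, 3928 and 3441 regions, and a larger set has more flanks of its own by size alone. The ratio to their share of the ESC regions was not computed.

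Open chromatin was present around these regions before they were listed. Another region with peaks in both MEF lists lay within 25 kb of 66.9% of them. The share was 58.7% with DAY3 regions, 71.0% with DAY6 regions, 81.7% with DAY9 regions and 83.2% with ESC regions. The stages also differed in their number of regions, 46089 in MEF, 35396 in DAY3, 45281 in DAY6, 64383 in DAY9 and 58800 in ESC. The part of that number in these shares was not tested. Regions in ESC alone had such a neighbour in 49.5% in MEF, 50.4% in DAY6 and 66.2% in ESC. Regions open from day 3 had one in 71.0%, 77.9% and 80.2% at the same stages. For regions opening at day 6 it was 59.3%, 69.4% and 77.0%, so such neighbours were not particular to the regions opening at day 9. The median distance to the next region in both ESC lists was 7.75 kb for regions opening at day 9, 9.04 kb for those opening at day 6, 7.82 kb for those open from day 3 and 13.7 kb for those in ESC alone.

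**Figure D5:**
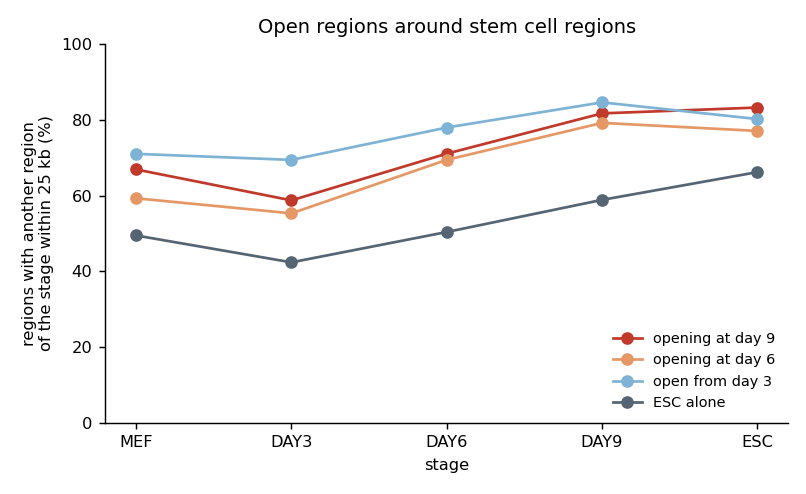
Share of regions (vertical axis, percent) with another region, present in both libraries of a stage (horizontal axis), within 25 kb, for 4 sets of stem cell regions. The regions opening at day 9 go from 66.9% in MEF and 58.7% in DAY3 to 83.2% in ESC, and those in ESC alone stay below the 3 other sets at each stage.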

How the data were processed

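Accessibility was measured by ATAC-seq in 10 mouse libraries, sequenced in paired ends per the labels' protocols. Per the submitters' processing notes, Bowtie2 2.3.2, MACS2 2.1.1, deepTools 2.3.6 and the build mm10 were used. Settings, duplicate handling, transposase offset and filters are not given in the sources used here. The authors deposited 1 peak list per library, not pooled, with a score, a fold (a linear ratio of pileup to expected background) and −log10 p- and q-values. The lowest deposited −log10 p was 5.00, and no list gave a summit, so peak centres replaced summits and the planned comparison of summits was not run.

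Peaks were merged, and where a library had several in a region the highest fold was taken. Pileups were recovered as the whole number that gives both the fold and the Poisson p of a peak (with 1 added to pileup and background in the fold, and a tolerance of 0.01 in −log10 p), which worked for 99.99% to 100.0% of the peaks of a list. The noise ratio divides the squared difference of 2 pileups, after scaling by their median ratio, by the variance that counting alone gives. Gene starts came from RefSeq promoters (GRCm38.p6) for 17491 of 21883 protein-coding genes, and both gene ends were used for the other 4392. The same table gave the sequences. No genome sequence was used.

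Genes named are those of the fixed lists, the nearest genes of the 10 regions with the highest lowest score, the 8 densest groups, the 10 genes with most regions and the 10 best regions at gene starts. One of these groups is not reported here. The regions and lists were chosen with earlier results of these data known. Nothing was tested across samples, because the choice of regions used every library and DAY9 counts as 1 sample. In lists simulated from the 77787 peaks of DAY9 replicate 1 with 5% of the peaks dropped, 156 of 200 planted regions were recovered, with 0 false ones. Because every simulated list came from the same peaks, the lowest fold did not differ between lists as it did in the data. A false region had to lose its peak in every MEF, DAY3 and DAY6 list at once, so few or none could arise. The recovered share likewise followed from the share of peaks dropped. The simulation shows that the rule was applied as written and gives no error rate for the data. Intervals cover counting error only. Python 3.11.15, numpy 2.4.6, pandas 2.3.3, scipy 1.17.1 and matplotlib 3.10.9 were used.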

Additional observations from a re-analysis of the deposited data

How the results depend on the processing

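Alternatives were equal list lengths, the top 50% of each list, a peak over at least 50% of the region, 500 bp windows around peak centres, other gene-start and flanking distances, scaled folds and leaving out each library. One, keeping only regions whose DAY9 fold reached the DAY6 floor of 3.61, was added after seeing the data. With equal list lengths 728 regions met the rule, 7.42% had a flanking region of the set and 62.5% had ESC above. With the top 50% of each list these values were 1195, 7.62% and 47.4%, with 9.79% at gene starts and a median log2 difference of 0.30. With a peak over at least 50% of the region 11.2% were flanked, 57.0% had ESC above and 7.29% were at gene starts. Within 500 bp 3.72% and within 2.5 kb 9.75% were at a gene start, and 6.43% had a flanking region of the set within 25 kb. Scaled folds gave a median log2 difference of 0.86 and ESC above in 82.0%, beside 47.8% of all regions with a peak in the DAY9 and ESC lists. The added alternative kept 1124 regions, with 3.56% at gene starts, 4.89% flanked and 48.4% with ESC above. The gene-start windows and the flanking limit change the shares by their construction. The added alternative keeps regions with a high DAY9 fold, which by construction lowers the share with ESC above. The flanked share also depends on how many regions met the rule. For the other changes the cause was not tested. The median difference stayed above 0 in each alternative. In each, regions were still chosen by absence from at least 1 DAY6 list, which bears on the DAY9 fold. That sign is therefore a description. Leaving out 1 library gave 2509 to 3928 regions (3928 without DAY6 replicate 1), 4.85% to 6.39% at gene starts, 8.55% to 14.4% flanked, a difference of 0.32 (without ESC replicate 1) to 0.65 and ESC above in 59.5% to 79.3%. Of the 2473 regions, 348 remained with equal list lengths, 202 with the top 50%, 1572 with 50% coverage and 2451 with windows. No paired analysis was possible because no value comes from a test and replicate numbers are only labels. A median pileup of 31 at day 9 limits the precision of each region's fold.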

Other observations

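Of the microRNA hairpins in RefSeq (GRCm38.p6), 2 overlapped a region first listed at day 9. The share of hairpins that overlap any region is not given here, so the 2 are only named. Mir196b, from a Hox cluster, lay in chr6:52229621-52230128 and Mir3086 in chr19:58911283-58911778. Among the 124 regions in which both DAY9 folds were above both ESC folds, 70 were between genes, 49 inside a gene and 5 at a gene start. Of all 2473 regions 1259 (50.9%) were between genes, 1084 (43.8%) inside a gene and 130 (5.26%) at a gene start. The counts are a description.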
